A study of Mus musculus with 8 samples.

Results

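Mast cell genes were followed in the mammary gland of mice carrying floxed Sox9 and Cre, as 10 genes of 19938 measured: Fcer1a, Ms4a2, Tpsb2, Tpsab1, Mcpt4, Cma1, Cpa3, Hdc, Gata2 and Slc18a2. The genes were chosen by name as genes known from mast cells, and each is represented by the brightest probe set that the platform annotation pairs with its symbol alone. All 10 were measured, each by 1 probe set, and no filter on low values was applied. The study held 8 virgin females, 5 weeks old, of a C57BL/6 X FVB background. In 4 of them (MMTV-Cre;Sox9flox/flox, here flox/flox), both Sox9 alleles were floxed. The other 4 (MMTV-Cre;Sox9+/flox, here flox/+) had 1 floxed allele and served as controls, so that all 8 had the recombinase and at least 1 floxed allele and no group was free of either. In MMTV-Cre mice a mouse mammary tumour virus promoter drives the recombinase in mammary epithelium and, in some lines, also in other tissues including blood cells, and the labels do not name the line. RNA came from the portion of the fourth gland near the lymph nodes and was hybridised to 1 Affymetrix Gene 1.0 ST array per gland.

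Mast cells are tissue-resident immune cells that mature locally from blood-borne progenitors and sit along vessels, ducts, nerves and skin. IgE bound to the high-affinity receptor on their surface triggers release of granules, which store histamine together with serine proteases and a carboxypeptidase bound to heparin. In the mammary gland they lie in the fat pad and stroma around growing ducts, and the connective tissue type of mast cell contains chymases, tryptases and carboxypeptidase A.

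Sox9 read 424, 448, 401 and 366 in the flox/+ glands and 298, 356, 287 and 351 in the flox/flox glands, in units of array intensity on a linear scale after quantile normalization. The groups did not overlap, and the log2 difference, which is flox/flox minus flox/+ throughout, was -0.33 ± 0.09 (SE; limma adjusted p over all genes = 0.256). The sources used here do not name the floxed exons, so whether this probe set covers the deleted part is not known, and the value is no measure of how much was deleted. The deposited arrays had median intensities between 159 and 178. Of all 19938 genes, 8 (0.0401%) had a limma adjusted p under 0.05, 6 of them higher in flox/flox (0.0301%), and between 2 and 21 did when 1 gland was left out (21 without flox/flox replicate 3, 2 without flox/+ replicate 4 or flox/flox replicate 4). Adipocyte, fibroblast and epithelial genes were bright in all glands, with the dimmest of each list at a mean of 861 (Lep), 1693 (Pdgfra) and 635 (Krt14). The B and T cell genes stood apart in flox/+ replicate 2, with a summed intensity of 1981 there. Nothing in the labels says whether arrays were processed in batches.

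Of the 10 mast cell genes, 9 had positive differences, against 47.4% of all genes, and 0 passed the test (limma adjusted p under 0.05), against 0.0401% of all genes. Their median log2 difference was 0.22, beside -0.0066 over all genes. At an unadjusted limma p under 0.05 there were 4 (all genes, 10.3%), each higher in flox/flox: Fcer1a, Tpsb2, Mcpt4 and Cma1 (all genes, 4.81% higher and 5.46% lower). A difference of at least 0.3 was found in 5, those 4 and Cpa3, against 2.19% of all genes. In 2 of the 10, Fcer1a and Tpsb2, every flox/flox value lay above every flox/+ value, against 2.74% of all genes, and 0 lay wholly below, against 3.16%. In glands taken whole, more cells of a type and more RNA per cell cannot be told apart.

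**Figure D1:**
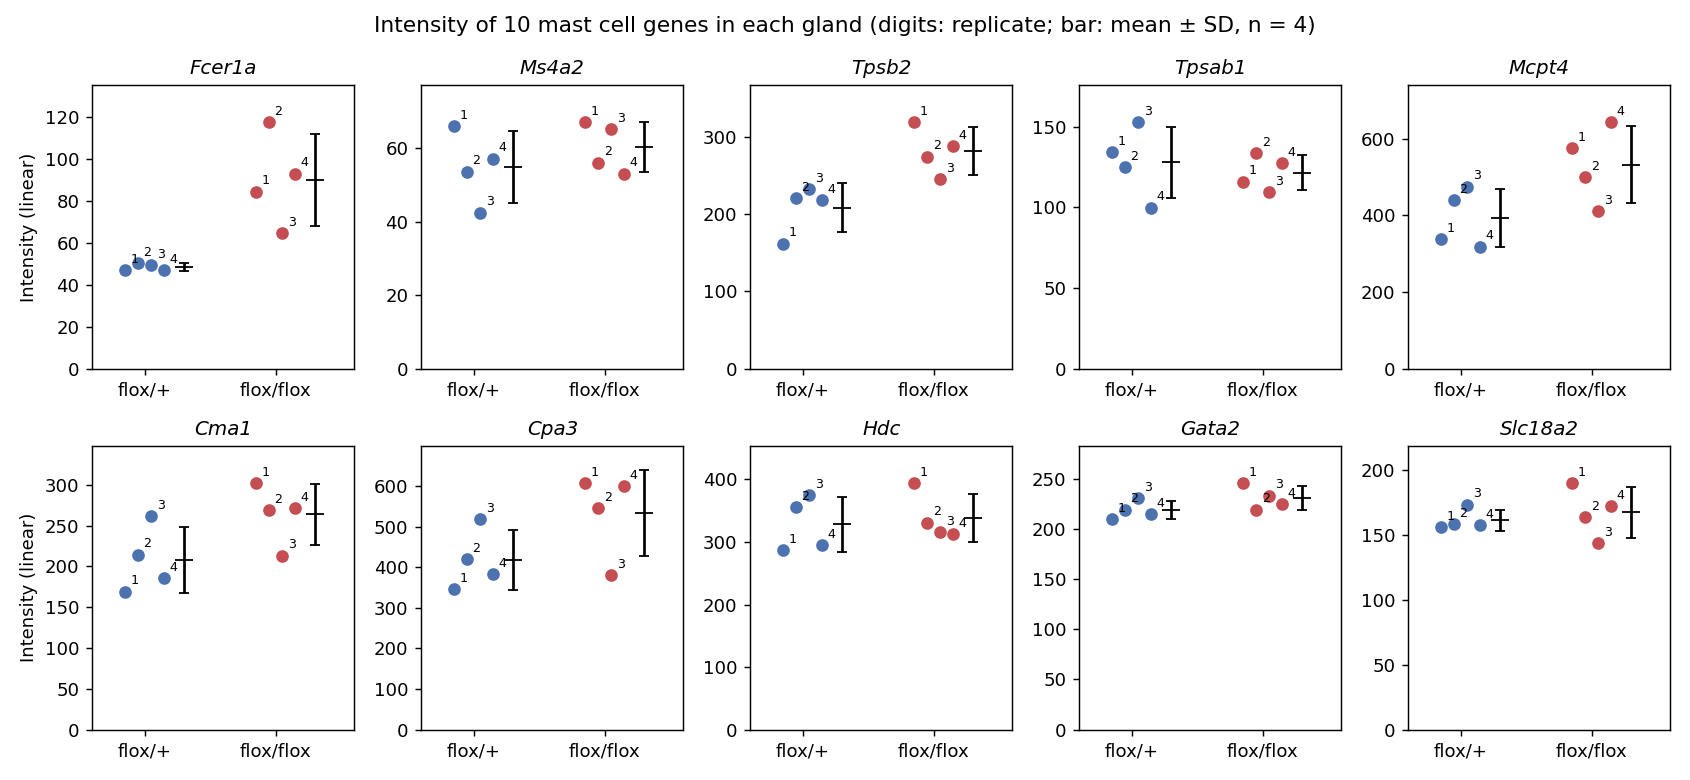
Array intensity (linear, vertical axes from 0) of each mast cell gene in the 4 flox/+ (blue) and 4 flox/flox (red) glands, with the replicate number beside each point and bars for mean ± SD. Only Fcer1a and Tpsb2 of the 10 had groups without overlap, and Fcer1a stayed between 46.9 and 50.5 in the controls.

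Promoter sequence is shown for genes of the receptor and of the granule because GATA factors, Gata2 among them, are known regulators of mast cell genes. Windows from 250 bases before to 50 bases after the gene's start were taken from RefSeq (GRCm38.p6), which matched 8 of the 10 genes with 9 windows. No window of Tpsb2 or Tpsab1 was analysed here. The GATA motif was searched on both strands as AGATAA or with its last letter changed, AGATAG, and likewise as TGATAA or with its last letter changed, TGATAG. Capitals mark these letters or their reverse complements on the gene's strand. At least 1 match stood in 7 of the 9 windows (77.8%), and in 29.8% of all 32851 windows of the same length. The windows were not matched for base composition, and the difference between these shares was not tested. The windows are Fcer1a (chr1:173227180-173227479, minus strand), Ms4a2 (chr19:11623670-11623969, minus strand), Mcpt4 (chr14:56062261-56062560, minus strand), Cma1 (chr14:55944626-55944925, minus strand) and Cpa3 (chr3:20242132-20242431, minus strand).
Fcer1a: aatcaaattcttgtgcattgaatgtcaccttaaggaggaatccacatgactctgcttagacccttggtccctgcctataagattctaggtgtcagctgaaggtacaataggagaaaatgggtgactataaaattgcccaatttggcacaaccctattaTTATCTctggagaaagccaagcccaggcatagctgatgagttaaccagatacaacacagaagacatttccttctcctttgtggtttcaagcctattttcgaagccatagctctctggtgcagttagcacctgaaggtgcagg
Ms4a2: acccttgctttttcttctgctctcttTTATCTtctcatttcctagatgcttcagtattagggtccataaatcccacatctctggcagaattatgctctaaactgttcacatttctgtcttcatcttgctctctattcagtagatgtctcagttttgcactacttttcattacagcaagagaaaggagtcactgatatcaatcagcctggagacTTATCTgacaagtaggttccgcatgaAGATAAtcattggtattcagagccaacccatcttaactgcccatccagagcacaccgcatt
Mcpt4: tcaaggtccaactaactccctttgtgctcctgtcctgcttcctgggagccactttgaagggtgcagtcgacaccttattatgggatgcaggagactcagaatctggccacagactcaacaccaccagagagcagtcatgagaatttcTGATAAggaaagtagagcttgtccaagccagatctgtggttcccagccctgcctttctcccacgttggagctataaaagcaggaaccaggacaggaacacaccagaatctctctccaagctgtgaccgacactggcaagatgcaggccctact
Cma1: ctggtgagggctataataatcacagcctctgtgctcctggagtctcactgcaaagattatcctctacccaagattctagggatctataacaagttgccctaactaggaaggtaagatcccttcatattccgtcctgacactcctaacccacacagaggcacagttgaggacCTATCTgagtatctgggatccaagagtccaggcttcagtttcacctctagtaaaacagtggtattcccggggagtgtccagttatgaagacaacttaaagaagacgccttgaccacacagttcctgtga
Cpa3: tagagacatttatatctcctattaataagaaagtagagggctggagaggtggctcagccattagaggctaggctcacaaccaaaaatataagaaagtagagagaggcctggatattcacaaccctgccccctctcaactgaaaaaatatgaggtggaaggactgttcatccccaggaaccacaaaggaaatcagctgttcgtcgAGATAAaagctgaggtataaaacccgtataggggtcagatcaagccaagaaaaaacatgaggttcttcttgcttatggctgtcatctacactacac

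Fcer1a held 1 match, 92 bases upstream of the start, and Ms4a2 held 3, at 224, 37 and 11 bases upstream. In Mcpt4, Cma1 and Cpa3 there was 1 match each, at 103, 79 and 46 bases upstream. Hdc had 1 and Slc18a2 had 2, while the 2 windows of Gata2 had 0. A match describes the letters in this window and does not show that a factor binds there.

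The IgE receptor was measured through its alpha chain, Fcer1a, which binds IgE, and its beta chain, Ms4a2, which amplifies the signal. Fcer1a read 47.1, 50.5, 49.5 and 46.9 in the flox/+ glands and 84.4, 117, 64.7 and 92.9 in the flox/flox glands. All 4 flox/flox glands were above all 4 controls, with replicate 2 highest and replicate 3 lowest among them. The means were 89.9 ± 21.9 (SD, n = 4) and 48.5 ± 1.77, a log2 difference of 0.69 ± 0.13 (SE, 95% limits of 0.41 and 0.97), or 1.62-fold on the scale of intensity plus 16. It ranked 39 of all genes by the limma test, with an adjusted p of 0.106. On the log2 scale its SD was 0.30 within flox/flox and 0.040 within flox/+. Without flox/flox replicate 3 the difference was 0.81 and the limma adjusted p was 0.0227, past the threshold, and in the 7 other fits that left out 1 gland the adjusted p lay between 0.121 and 0.255.

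Ms4a2 read 66.0, 53.6, 42.5 and 57.1 in the flox/+ glands and 67.1, 56.0, 65.0 and 53.0 in the flox/flox glands. The groups overlapped, and Ms4a2 differed by 0.11 ± 0.11 on the log2 scale (SE, 95% limits of -0.12 and 0.35; limma adjusted p = 0.758). With 1 gland left out the difference lay between 0.026 (without flox/+ replicate 3) and 0.19 (without flox/+ replicate 1). Both receptor genes lay near the dim end of the arrays, where the files give no detection calls and signal cannot be told from background.

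Fcer1g, the gamma chain that Fc receptors of several leukocytes share, read 575, 493, 796 and 640 in flox/+ and 809, 607, 888 and 687 in flox/flox glands. The groups overlapped, and the log2 difference was 0.26 ± 0.15 (SE, limma adjusted p = 0.595), or 0.15 without flox/+ replicate 2 and 0.17 without flox/flox replicate 3. Kit, the receptor for stem cell factor on mast cells, which mammary luminal cells also express, read 864, 863, 757 and 850 in flox/+ and 876, 1036, 740 and 817 in flox/flox glands, with a log2 difference of 0.048 ± 0.099 (SE, limma adjusted p = 0.914) that was -0.040 without flox/flox replicate 2.

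Of the granule proteases, Tpsb2, Mcpt4, Cma1 and Cpa3 had differences between 0.33 and 0.42, and Tpsab1 lay near 0. Tpsb2, a tryptase also known as mast cell protease 6, read 162, 221, 232 and 217 in the flox/+ glands and 319, 274, 245 and 287 in the flox/flox glands. The lowest flox/flox gland, replicate 3, was above the highest control, replicate 3. Its log2 difference was 0.41 ± 0.11 (SE, 95% interval 0.17 to 0.66), or 1.33-fold (limma adjusted p = 0.250).

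Tpsab1, the neighbouring tryptase gene on chromosome 17 also known as mast cell protease 7, read 134, 125, 153 and 99.8 in the flox/+ glands and 116, 134, 109 and 127 in the flox/flox glands. It was the 1 gene of the 10 with a negative difference, -0.055 ± 0.11 (SE, 95% interval -0.30 to 0.19; limma adjusted p = 0.908), and the groups overlapped; without flox/+ replicate 3 the difference was 0.026. The RefSeq gene table of the C57BL/6J assembly lists Tpsab1 as a transcribed pseudogene, and the gene is known to be disrupted in C57BL/6 while other strains make the enzyme. The glands came from a cross with FVB, and the allele each mouse carried is not given in the labels. Tpsb2 minus Tpsab1 within a gland was higher in flox/flox by 0.47 ± 0.18 (SE), with a 2-sided exact permutation p of 0.0571 over 70 assignments of the glands and 0.0857 after Benjamini-Hochberg adjustment over 3 pairs of related genes. The smallest permutation p the design allows is 0.0286, below the value of this pair. A pair standing alone could not fall below 0.0857 after adjustment. The other pairs were Mcpt4 with Cma1 and Fcer1a with Ms4a2. The last had the same permutation p as the tryptases, and the adjusted 0.0857 of the tryptases rests on that tie. The difference between Fcer1a and Ms4a2 is not given, as both probe sets are dim. Related tryptase transcripts may share hybridisation on an array, so their separation is uncertain.

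Mcpt4, a chymase that is held to be the functional counterpart of human chymase, read 339, 439, 475 and 318 in the flox/+ glands and 576, 499, 410 and 643 in the flox/flox glands. Replicate 3 of flox/flox fell within the control range, while the other 3 flox/flox glands lay above every control. The log2 difference was 0.42 ± 0.15 (SE, 95% interval 0.083 to 0.76; limma adjusted p = 0.377).

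Cma1, known as mast cell protease 5, is a chymase by sequence with elastase activity in the mouse. It read 169, 215, 262 and 186 in the flox/+ glands and 303, 269, 213 and 271 in the flox/flox glands. Again flox/flox replicate 3 lay inside the control range and the remaining 3 above it, with a log2 difference of 0.33 ± 0.13 (SE, 95% interval 0.035 to 0.62; limma adjusted p = 0.446).

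Cpa3, carboxypeptidase A of the granule, read 347, 420, 519 and 382 in the flox/+ glands and 608, 546, 381 and 601 in the flox/flox glands. Here, too, flox/flox replicate 3 was the low one of its genotype, below 3 of the 4 controls. The log2 difference was 0.34 ± 0.16 (SE, 95% interval -0.0061 to 0.68) and the limma adjusted p was 0.493. Mcpt4 and Cma1 are both on chromosome 14, and Mcpt4 minus Cma1 within a gland differed between genotypes by 0.093 ± 0.099 (SE; 2-sided exact permutation p = 0.486).

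Within each genotype Tpsb2, Cma1 and Cpa3 put the glands in 1 order, and Mcpt4 differed from it only in the places of replicates 1 and 4. In the controls flox/+ replicate 1 was the lowest for Tpsb2, Cma1 and Cpa3 and flox/+ replicate 4 for Mcpt4, while flox/+ replicate 3 was the highest for all 4. In flox/flox glands replicate 3 was the lowest for all 4 of them. Fcer1a did not share the spread among controls: its range there was 0.080 on the log2 scale, against 0.48 for Tpsb2, 0.55 for Mcpt4, 0.59 for Cma1 and 0.56 for Cpa3. Among flox/flox glands Fcer1a was highest in replicate 2, where Mcpt4 and Cpa3 were below replicates 1 and 4.

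**Figure D2:**
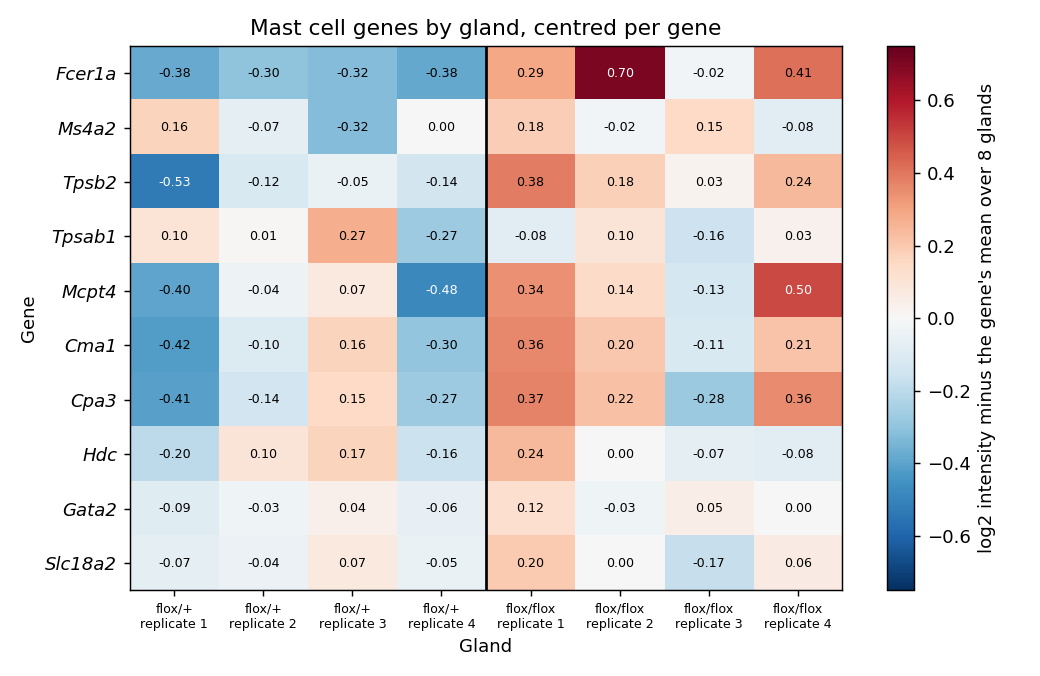
Log2 intensity of each mast cell gene in each of 8 glands, minus the gene's mean over the glands (red above, blue below, values printed). The rows of Tpsb2, Mcpt4, Cma1 and Cpa3 are low in flox/+ replicates 1 and 4 and high in flox/flox replicates 1, 2 and 4, whereas Ms4a2 and Tpsab1 follow other orders.

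Histamine and its storage were represented by Hdc, the histidine decarboxylase that makes histamine, and Slc18a2, the vesicular transporter that loads histamine and other amines. Hdc read 287, 355, 375 and 295 in the flox/+ glands and 395, 331, 315 and 313 in the flox/flox glands. The groups overlapped, with a log2 difference of 0.046 ± 0.10 (SE, 95% interval -0.18 to 0.28; limma adjusted p = 0.924), and its sign turned without flox/+ replicate 1 (-0.012) or 4 (-2.6e-05) or flox/flox replicate 1 (-0.027).

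Slc18a2 read 156, 159, 174 and 158 in the flox/+ glands and 190, 164, 144 and 172 in the flox/flox glands. The highest and the lowest gland were both flox/flox, the sign turned without flox/flox replicate 1 (-0.016), and the difference was 0.042 ± 0.083 on the log2 scale (SE, 95% interval -0.14 to 0.23; limma adjusted p = 0.906). Gata2, a transcription factor that mast cells need and that endothelial cells also express, read 210, 219, 231 and 214 in the flox/+ glands and 246, 219, 233 and 225 in the flox/flox glands. Its difference was 0.072 ± 0.064 (SE, 95% interval -0.069 to 0.21; limma adjusted p = 0.746). Its log2 range was 0.16 within flox/flox, the narrowest of the 10 genes there, and 0.13 within flox/+, where Fcer1a had a narrower one.

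Across the 10 genes flox/flox replicate 1 held the highest value of the 8 glands for 7 genes: Ms4a2, Tpsb2, Cma1, Cpa3, Hdc, Gata2 and Slc18a2. The lowest value lay in flox/+ replicate 1 for 5 genes and in flox/+ replicate 4 for 3. The mean of the gene-centred log2 values of the 10 genes was -0.22, -0.074, 0.024 and -0.21 in the flox/+ glands and 0.24, 0.15, -0.072 and 0.17 in the flox/flox glands. By this mean flox/flox replicate 3 lay among the controls, so the genotypes overlapped. The high mean of flox/flox replicate 1 was not particular to mast cell genes. Of the lists described below, it was also the highest gland for eosinophil (0.32), macrophage (0.28) and endothelial genes (0.23). The same held for IgE receptor signalling (0.19), growth and recruitment (0.14) and mediator and granule genes (0.13). Every other list was highest in another gland.

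Other genes known from mast cells were read from lists of related function. For these and the later lists, 47.4% of all genes had positive differences. At an unadjusted limma p under 0.05, 4.81% of all genes were higher in flox/flox and 5.46% lower. Without overlap, 2.74% lay higher and 3.16% lower. Of 6 measured surface genes 4 were positive (median 0.057, but -0.054 without the lowest 1 in 3 of all genes), 2 had an unadjusted limma p under 0.05 in the higher direction and 1 in the lower, and 0 passed the adjusted test. Mrgprb1, a Mas-related receptor found on mouse mast cells, read 49.0, 67.9, 57.6 and 73.3 in the flox/+ glands and 92.1, 93.6, 77.1 and 107.8 in the flox/flox glands. These groups did not overlap, with a log2 difference of 0.48 ± 0.11 (SE, limma adjusted p = 0.195). Like Fcer1a, Mrgprb1 lay near the dim end of the arrays, where signal cannot be told from background. Mrgprb2, the mast cell receptor for basic peptides and drugs, had a difference of 0.22 ± 0.088 (SE, adjusted p = 0.450), at dim intensities between 29.3 and 47.1. Cd63, a membrane protein of granules and lysosomes in many cell types, was at -0.30 ± 0.083 (SE, adjusted p = 0.257).

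Of the 5 other granule proteases, which include the mucosal mast cell proteases Mcpt1 and Mcpt2, 3 were positive (median 0.058), and 0 had an unadjusted limma p under 0.05. Mcpt2 was at 0.11 ± 0.10 and Gzmb, granzyme B of lymphocytes and some mast cells, at 0.087 ± 0.095 (SE). Mcpt1, Mcpt2 and Gzmb lay near the dim end of the arrays, where signal cannot be told from background. The mediator and granule list had 12 of 15 positive (median 0.048) and 3 with an unadjusted limma p under 0.05, all higher. Alox5, the 5-lipoxygenase that starts leukotriene synthesis, was at 0.33 ± 0.12 (SE, limma adjusted p = 0.383), and Rab27a, a small GTPase of granule docking, at 0.30 ± 0.11 (adjusted p = 0.385). Leukotriene enzymes are also made by macrophages and eosinophils.

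Among 8 transcription factors 6 were negative (median -0.076), 1 had an unadjusted limma p under 0.05 in each direction and 0 passed. Runx1, a factor of blood lineages and of epithelium, read 529, 534, 479 and 424 in flox/+ and 580, 736, 604 and 641 in flox/flox glands, without overlap (0.37 ± 0.096 SE, limma adjusted p = 0.239). Tal1, a partner of Gata2 in blood and endothelial cells, was at -0.23 ± 0.10 (SE, adjusted p = 0.473). The IgE receptor signalling list had 11 of 15 positive (median 0.083), with 3 at an unadjusted limma p under 0.05, all higher. Its smallest p belonged to the kinases Fyn (0.23 ± 0.089 SE) and Prkcd (0.19 ± 0.078).

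For growth and recruitment of mast cells 6 of 9 genes were positive (median 0.024, or 0.10 without flox/flox replicate 2), with 1 higher and 1 lower at an unadjusted limma p under 0.05. Kitl, the stem cell factor on which mast cells depend, read 546, 520, 565 and 505 in flox/+ and 758, 673, 532 and 691 in flox/flox glands. Replicate 3 of flox/flox again lay in the control range, and the log2 difference was 0.30 ± 0.10 (SE, limma adjusted p = 0.332). Il33, an alarmin that activates mast cells, read 742, 482, 655 and 802 in flox/+ and 601, 439, 538 and 279 in flox/flox glands, with overlap and a difference of -0.54 ± 0.22 (SE, limma adjusted p = 0.440). Without flox/flox replicate 4 it was -0.33, and the unadjusted limma p of Il33 was above 0.05 there and without flox/+ replicate 1, 3 or 4 or flox/flox replicate 2. Receptors and breakdown enzymes of mast cell mediators had 9 of 10 negative with a median of -0.045, and 0 with an unadjusted limma p under 0.05. Hnmt, which methylates histamine, was at -0.13 ± 0.11 (SE), and Cysltr1, a leukotriene receptor, at 0.12 ± 0.088 (SE).

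**Figure D3:**
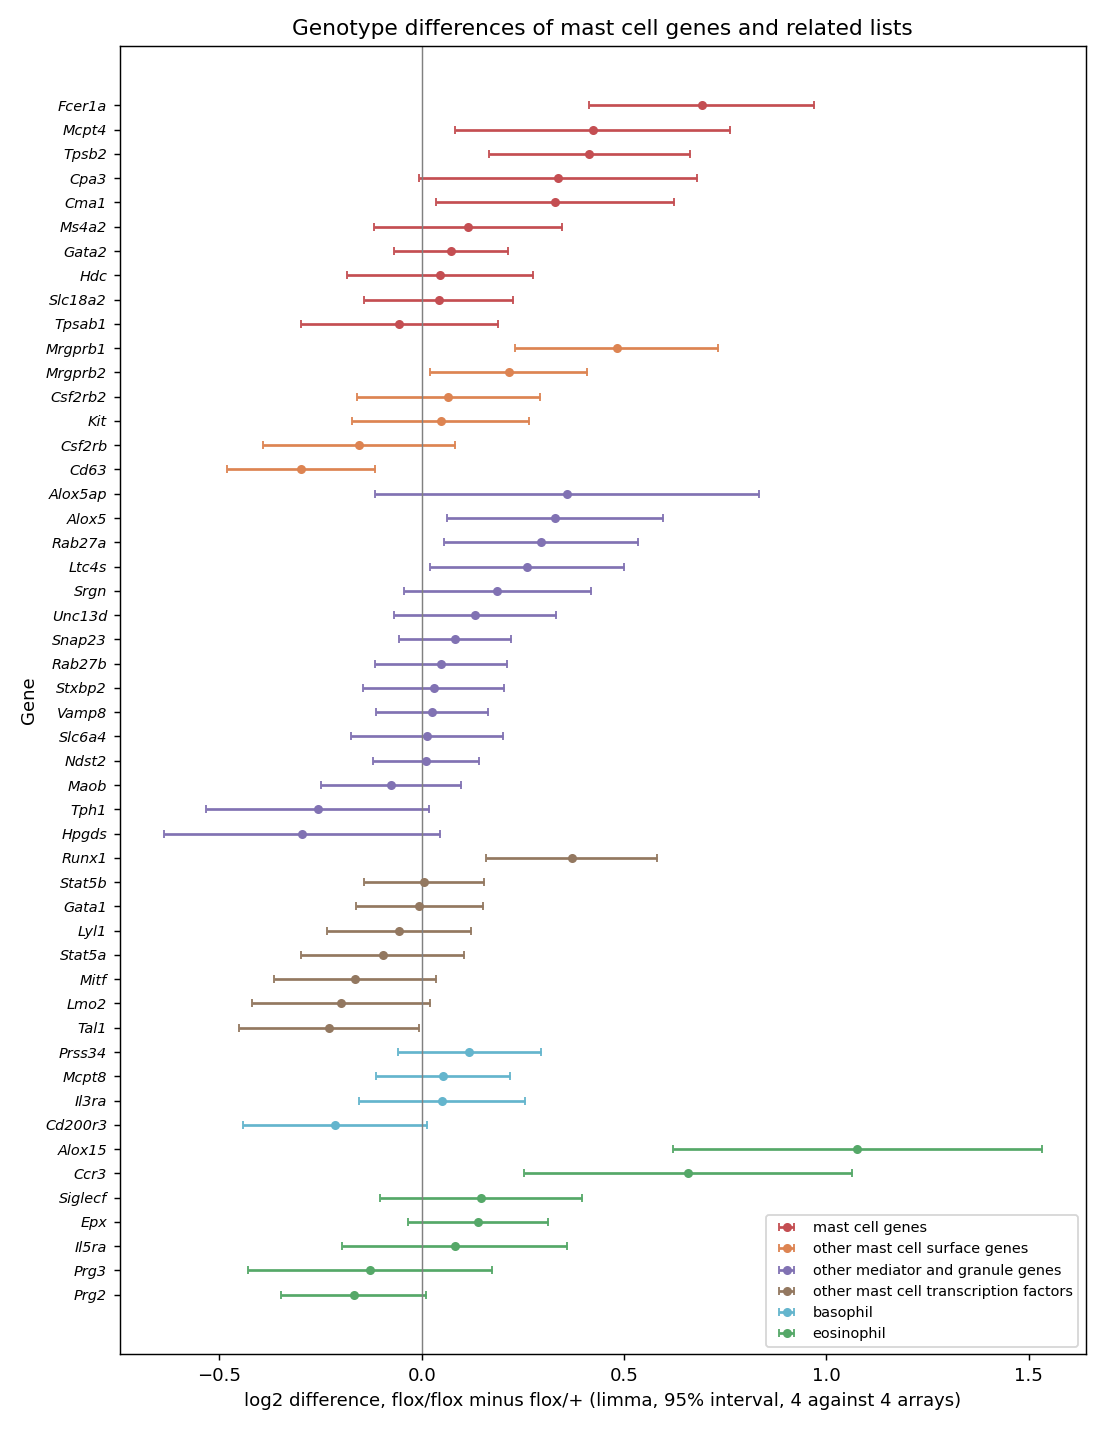
Log2 differences, flox/flox minus flox/+, with limma 95% intervals (4 against 4 arrays) for the 10 mast cell genes and 5 related lists, ordered within each list. The intervals of Fcer1a, Tpsb2, Mcpt4 and Cma1 lie above 0, and those of Cpa3, Ms4a2, Hdc, Gata2, Slc18a2 and Tpsab1 span it.

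Basophils share Fcer1a, Ms4a2, Hdc and Gata2 with mast cells, and eosinophils often accompany them. Of 4 basophil genes 3 were positive (median 0.051), with summed intensities of 556 to 654 in flox/flox and 565 to 660 in flox/+ glands and with 0 at an unadjusted limma p under 0.05. Mcpt8, the basophil protease, read between 61.1 and 74.7 in all 8 glands, with a difference of 0.052 ± 0.075 (SE). Prss34, another protease of basophils and mast cells, was at 0.12 ± 0.080 and the surface receptor Cd200r3 at -0.21 ± 0.10 (SE). The dimmest of the 4, Cd200r3, had a mean of 37.4. Like the receptor genes, Cd200r3 and Mcpt8 lay near the dim end of the arrays, where signal cannot be told from background.

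Of 7 eosinophil genes 5 were positive (median 0.14), and 2 had an unadjusted limma p under 0.05 and no overlap. Without the lowest 1 in 3 of all genes the median was 0.61, but only Siglecf and Alox15 were then left in the list. The summed intensity of all 7 was 922 to 1658 in flox/flox and 911 to 942 in flox/+ glands, and the dimmest, Il5ra, had a mean of 52.4. Much of this sum was Alox15, at 323 to 782 in flox/flox and 230 to 258 in flox/+ glands. Prg2 (-0.17) and Prg3 (-0.13) had negative log2 differences, and those of Epx (0.14), Siglecf (0.15) and Il5ra (0.082) were positive but small. Alox15, a lipoxygenase of eosinophils and some macrophages, had a difference of 1.08 ± 0.21 (SE, limma adjusted p = 0.122; 1.31 and 0.00747 without flox/flox replicate 2), and Ccr3, the eotaxin receptor that some mast cells also carry, 0.66 ± 0.18 (adjusted p = 0.257). The glands ordered alike only in part. By the gene-centred mean, flox/flox replicate 1 was highest for both mast cell (0.24) and eosinophil genes (0.32). Next in both came flox/flox replicate 4 (0.17 and 0.22). The other flox/flox glands parted. Flox/flox replicate 2 had the highest Fcer1a but the lowest mean of eosinophil genes (-0.22 on the gene-centred log2 scale). Flox/flox replicate 3, low in the granule proteases, was at 0.19 for eosinophil genes. The part of eosinophils or basophils in the mast cell values was not tested.

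**Figure D4:**
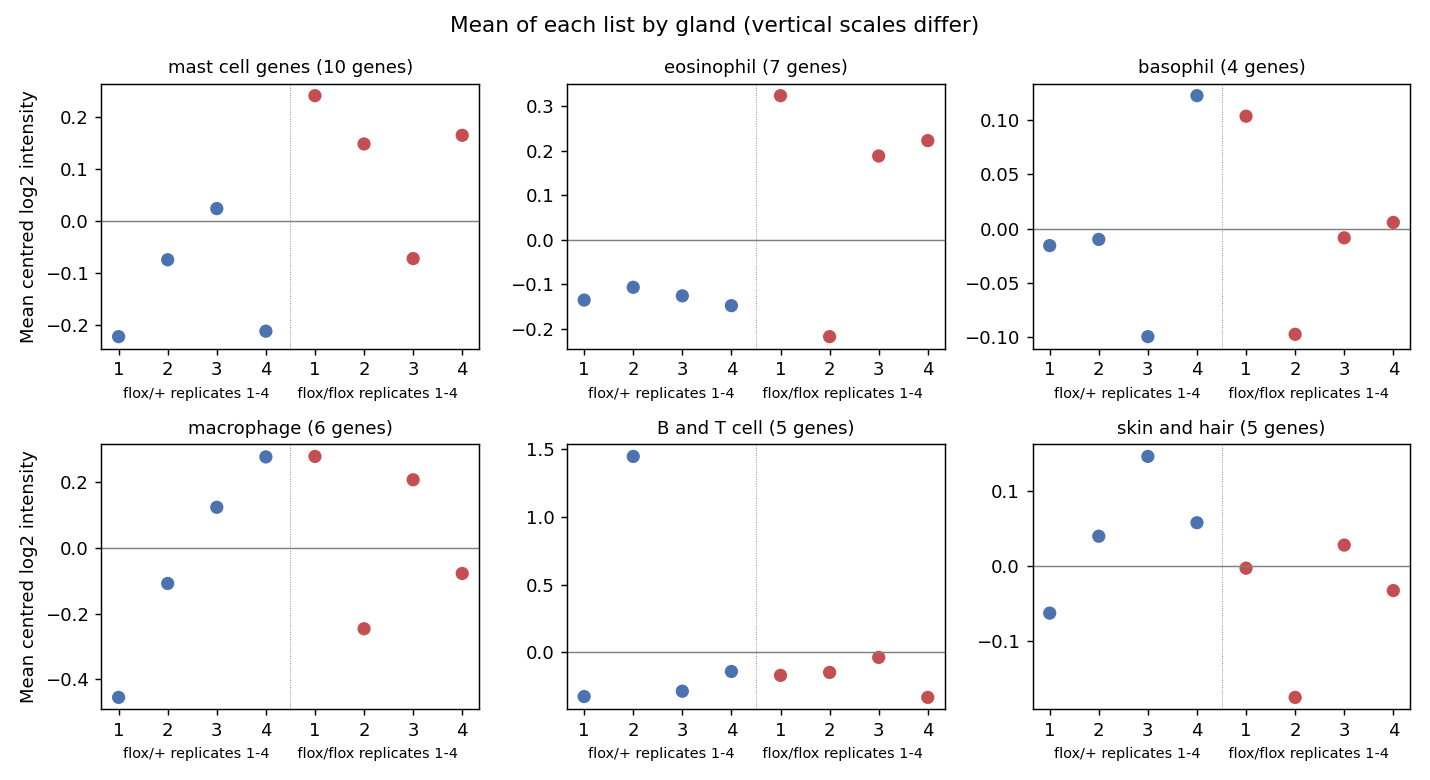
Mean gene-centred log2 intensity of 6 gene lists in each gland (blue flox/+, red flox/flox, vertical scales differ). Mast cell genes are lowest in flox/+ replicates 1 and 4, eosinophil genes are above all controls in 3 of the 4 flox/flox glands, and B and T cell genes peak in flox/+ replicate 2.

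Skin, which is rich in mast cells, and muscle border the gland. Skin and hair genes were negative in 4 of 5, with summed intensities of 806 to 888 in flox/flox and 918 to 1018 in flox/+ glands and Krt25 the dimmest at 42.4. Skeletal muscle genes were negative in 6 of 6, at 1231 to 1381 and 1343 to 1591, with Mylpf the dimmest at 66.7. Macrophage genes were positive in 4 of 6 (median 0.16), with sums of 5212 to 7941 in flox/flox and 4384 to 7418 in flox/+ glands. Dendritic cell and monocyte genes, of which some can carry Fcer1a, were positive in 4 of 6 (median 0.16), with sums of 843 to 1132 and 835 to 959. Endothelial genes, where Gata2 is also active, were positive in 4 of 9 (median -0.014). Fibroblast genes were negative in 4 of 6 (median -0.27), with 2 lower at an unadjusted limma p under 0.05 and 0 past the adjusted test. Adipocyte genes were negative in 5 of 6 (median -0.027) and epithelial genes in 4 of 6 (median -0.015). Nerve genes were positive in 1 of 4 and platelet genes in 1 of 4, both of which can express Slc18a2. The part of these cells in the mast cell values was not tested. Without flox/+ replicate 2, where B and T cell genes were high, the differences were 0.71 for Fcer1a, 0.45 for Tpsb2, 0.48 for Mcpt4, 0.35 for Cma1 and 0.35 for Cpa3. In the same fit they were 0.11 for Ms4a2, -0.061 for Tpsab1, 0.085 for Hdc, 0.074 for Gata2 and 0.035 for Slc18a2.

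Genes nearest in pattern were found by the root mean square difference of gene-centred log2 values over the 8 glands, with genes of all functions allowed. For Cpa3 the nearest of all genes was Cma1, at 0.079, and Mcpt4 was the fourth, at 0.12. Between them stood Casp1 (0.097), the protease of inflammasomes, and the immune receptor gene Lilra6 (0.10), and the fifth was the mitochondrial ribosomal gene Mrpl20 (0.13). The median distance of all genes from Cpa3 was 0.32. For Fcer1a the nearest were the clock gene Per2 (0.12), the cytokine receptor chain Cntfr (0.15), Fhl1 (0.15), the mitochondrial carrier Slc25a33 (0.15) and the interferon-induced GTPase Iigp1 (0.15), and none of the 9 other mast cell genes was among these 5. The median distance of all genes from Fcer1a was 0.41, close to the root mean square of its own centred values, 0.39. This distance depends on the size of the changes as well as on the order of the glands. The 5 nearest to Fcer1a had log2 differences between 0.56 and 0.82, while the largest among the 9 other mast cell genes was 0.42 (Mcpt4). Their absence from the 5 therefore cannot tell whether they share its order.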

How the data were processed

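Total RNA of 8 mammary glands was prepared (Qiagen RNeasy Mini, per the labels' protocols). The deposited values are array intensity per probe set on a linear scale, for which the submitters' processing notes name PLIER and version 1.0 of Affymetrix Expression Console. The authors' background correction and any normalization between arrays were not given in the sources used here. Of 35557 probe sets 21789 had 1 gene symbol and stood for 19938 genes (brightest probe set per gene). Of these probe sets 21698 matched the RefSeq table of GRCm38.p6 by gene identifier, with 0 symbols changed. Values were offset by 16, taken to log2 and quantile normalized over the whole table, since array percentiles spread by up to 0.245, above a tolerance of 0.1. The test was limma's moderated fit (lmFit, eBayes; limma 3.58.1, R 4.3.3), with Benjamini-Hochberg adjustment over all genes and a threshold of 0.05.

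Intensities printed are after normalization with the offset removed, log2 differences keep the offset, and folds understate changes of dim genes. Each gland came from its own mouse as far as the labels say, and the number of arrays limits precision. The 10 genes and the gene lists were chosen with earlier results of these data known. Named besides the 10 are Sox9, up to 2 genes with the smallest p of each list related to mast cells, basophils or eosinophils, 8 genes fixed by name, of which Il1rl1 was not analysed here, and the 5 nearest patterns of Fcer1a and Cpa3. Further lists are given as counts and sums, with the dimmest gene of some lists named for its level (Lep, Pdgfra, Krt14, Il5ra, Cd200r3, Krt25 and Mylpf), chosen after values were seen. Epx, Prg2, Prg3 and Siglecf complete the eosinophil list and were also named after values were seen. Arrays of 4 against 4 with 19938 genes were also simulated, with 50 genes changed at each of 4 sizes in the same table. A log2 change of 0.5 was found for 56% of 50 genes, a change of 1 for 98% and one of 2 or 4 for 100%, and 7.81% of the calls were false. The simulation gave 192 calls, against 8 in the data, and more calls make the adjusted threshold easier to pass. These shares are therefore not the power of the test on the real glands.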

Additional observations from a re-analysis of the deposited data

Results flagged for a closer look

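In Slc18a2, the vesicular amine transporter, flox/+ replicate 3 read 173.6, above the next control at 158.7 but within the flox/flox range of 144 to 190. In Kit, the stem cell factor receptor, flox/+ replicate 3 read 757.4, below the next control at 849.7 but within the flox/flox range of 740 to 1036. In Tal1, flox/flox replicate 3 read 309.1, above the next flox/flox gland at 264.8 but within the flox/+ range of 271 to 374. These 3 of 68 groups of 4 glands had a gap over range above Dixon's critical value. Chance flags about 1 group in 20, a share that 3 of 68 does not exceed.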

How the results depend on the processing

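The labels do not say what replicate numbers mean, and same-numbered glands did not deviate together, with correlations of -0.20, 0.063, 0.21 and -0.095 and 1 of 4 flox/flox glands closest to its own number. With the replicate block the count of genes past the test stayed at 8, and 0 mast cell genes passed. Of all genes, 18 passed with median centring, 4 with an offset of 1, 19 with an offset of 64, 3 without the lowest 1 in 3 genes, 1 with all probe sets tested and 17 with trend and robust eBayes, and between 2 and 21 with 1 gland left out. The count of mast cell genes past the test ranged from 0 to 1 with 1 gland left out (Fcer1a, without flox/flox replicate 3), and that of positive genes from 7 to 10. The filter on low genes removed Fcer1a, Ms4a2 and Tpsab1, leaving 7 of 7 positive. With 1 gland left out the sign turned for Tpsab1 (-0.15 to 0.026), Hdc (-0.027 to 0.11), Slc18a2 (-0.016 to 0.11), Kit (-0.040 to 0.12) and Aoc1 (-0.62 to 0.32). The cause was not tested. Fcer1a lay between 0.44 (offset of 64) and 0.85 (offset of 1), and Alox15 passed in 1 of 18 alternatives, without flox/flox replicate 2 (1.31, limma adjusted p = 0.00747). Of 180 list medians 3 moved: surface genes to -0.054 and eosinophil genes to 0.61 without the lowest 1 in 3 genes, and growth and recruitment to 0.10 without flox/flox replicate 2. The eosinophil value then rested on Siglecf and Alox15 alone. Over the 18 alternative fits, which share the same glands, the 10 genes kept their sign and side of the threshold in 171 of 177 gene values.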

Other observations

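Aoc1, the diamine oxidase that breaks down histamine outside cells, varied widely among glands without a genotype difference past the test. It read 154, 135, 557 and 64.4 in the flox/+ glands and 120, 94.7, 265 and 135 in the flox/flox glands, with a log2 difference of -0.22 ± 0.50 (SE, limma adjusted p = 0.921), which was 0.32 without flox/+ replicate 3. The highest gland of each genotype was its replicate 3.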
